A study of Mus musculus with 13 samples.

Results

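Regions listed as peaks of nuclear pore proteins were set beside chromatin carrying the repressive histone mark H3K27me3 in control 4T1 cells. The nuclear pore peaks were taken from ChIP-seq with mAb414, an antibody to several nucleoporins that the study calls NPC. Genes met by such a peak are called NPC-bound below as a label only, since many peaks stood little above the IgG control or below it. The NPC list held 11234 distinct peaks that met the bodies of 5715 genes, and the H3K27me3 list held 9555 peaks on 4971 genes, out of 64739 distinct peaks and 18562 genes in the 6 deposited lists. Of these genes, 2054 had both kinds of peak, 3661 had NPC only, 2917 had H3K27me3 only, and 9930 had neither and were listed for another reason. A gene enters the files only when a peak of some list meets it, so genes without any peak were not counted. The 6 lists include those of H3K27me3 and H3K4me3 in Nup210 knockout cells, which also add to the listed genes.

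The study asked how loss of the nucleoporin NUP210 changes chromatin and metastasis in 4T1, a mammary tumor line from a BALB/cJ mouse. Both libraries described here came from sg-Ctrl cells, which carry a non-targeting guide RNA and received Cas9 transiently. The methods describe sorting and clonal expansion of single cells without saying whether the sg-Ctrl cells were a clone. A clone may therefore stand for the condition. H3K27me3 was called by the authors against rabbit IgG and NPC against mouse IgG, and the NUP210 and H3K4me3 lists of the same cells are used where they touch these peaks. Each target has 1 library, so there is no replicate check, no test between cultures is possible, and the 95% intervals below cover counting error only. The peaks held 5866175 NPC reads and 7719297 H3K27me3 reads. All 6 epithelial markers (Epcam, Krt8, Krt18, Cdh1, Krt14 and Cldn4) carried an H3K4me3 peak at the TSS, while of 7 markers of other cells only Col1a1 did.

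The nuclear pore complex forms the channel of the nuclear envelope, and several of its proteins also contact chromatin, at the pore or free in the nucleoplasm. H3K27me3 is written by Polycomb repressive complex 2 and covers silent genes, many of them regulators of development or genes of other tissues. H3K4me3 marks promoters that are active or held ready for transcription.

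Promoters of a few genes show the sequence at starts that lay under these peaks. They are RefSeq sequences of GRCm38.p6, from 250 bases before the start to 50 after it, and the CG dinucleotides, which read the same on both strands, are in capitals. The first pair had the strongest H3K27me3 peaks, with at least 10 IgG reads, among genes of the table whose start lay under both an NPC and an H3K27me3 peak. Stk31, a kinase gene of germ cells (chr6:49395354-49395653, plus strand), had 28 CG, a number reached by 14.2% of the 32851 promoters of the RefSeq table. Nkain2, which encodes a partner of the sodium pump (chr10:32889866-32890165, minus strand), had 43 CG, reached by 2.61% of promoters.
Stk31: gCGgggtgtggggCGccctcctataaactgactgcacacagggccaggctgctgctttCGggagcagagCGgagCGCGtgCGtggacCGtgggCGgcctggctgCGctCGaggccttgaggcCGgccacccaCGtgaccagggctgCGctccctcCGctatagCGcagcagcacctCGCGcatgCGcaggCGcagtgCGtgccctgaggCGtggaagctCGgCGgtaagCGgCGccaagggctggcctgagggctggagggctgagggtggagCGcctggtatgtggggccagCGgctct
Nkain2: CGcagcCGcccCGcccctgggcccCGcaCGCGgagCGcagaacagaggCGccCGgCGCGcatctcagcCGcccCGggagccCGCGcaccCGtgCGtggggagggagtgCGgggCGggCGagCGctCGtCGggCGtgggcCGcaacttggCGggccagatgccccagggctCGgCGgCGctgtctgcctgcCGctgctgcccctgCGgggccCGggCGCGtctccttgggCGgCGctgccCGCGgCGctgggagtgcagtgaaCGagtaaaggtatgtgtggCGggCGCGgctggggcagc

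The next pair had the highest NPC enrichment among genes with NPC on the start, an H3K4me3 peak and no H3K27me3. Dock8, a guanine nucleotide exchange factor (chr19:24999279-24999578, plus strand), had 52 CG, reached by 0.575% of promoters. Chchd6, a mitochondrial cristae gene (chr6:89595603-89595902, minus strand), had 13 CG, reached by 37.9%.
Dock8: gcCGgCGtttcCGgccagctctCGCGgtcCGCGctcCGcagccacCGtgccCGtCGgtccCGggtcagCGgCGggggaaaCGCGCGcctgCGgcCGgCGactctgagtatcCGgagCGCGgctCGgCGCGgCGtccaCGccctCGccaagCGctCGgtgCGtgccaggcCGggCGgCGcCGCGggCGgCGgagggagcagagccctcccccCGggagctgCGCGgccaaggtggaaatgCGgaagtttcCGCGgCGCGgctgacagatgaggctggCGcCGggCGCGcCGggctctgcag
Chchd6: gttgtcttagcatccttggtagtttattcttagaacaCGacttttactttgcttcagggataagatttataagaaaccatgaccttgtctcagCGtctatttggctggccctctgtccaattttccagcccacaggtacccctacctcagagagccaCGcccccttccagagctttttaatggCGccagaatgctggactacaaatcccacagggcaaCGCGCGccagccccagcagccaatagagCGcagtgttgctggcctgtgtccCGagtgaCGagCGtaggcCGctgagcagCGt

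The last pair had H3K27me3 on the start, no NPC peak and the highest fold with at least 10 IgG reads. Cmah, which hydroxylates sialic acid (chr13:24327154-24327453, plus strand), had 3 CG, reached by 76.7% of promoters, and 1700029B22Rik (chr7:131146189-131146488, plus strand) had 2 CG, reached by 85.9%. The RefSeq table held 71.9% of the listed gene names, under the 80% needed for a comparison of base composition, so the groups were not compared on CG content.
Cmah: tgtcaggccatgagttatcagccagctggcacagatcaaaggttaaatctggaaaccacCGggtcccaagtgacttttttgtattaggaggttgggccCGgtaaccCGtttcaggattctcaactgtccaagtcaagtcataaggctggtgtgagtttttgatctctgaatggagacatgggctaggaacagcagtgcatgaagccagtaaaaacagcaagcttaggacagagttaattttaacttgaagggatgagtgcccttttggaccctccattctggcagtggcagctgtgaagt
1700029B22Rik: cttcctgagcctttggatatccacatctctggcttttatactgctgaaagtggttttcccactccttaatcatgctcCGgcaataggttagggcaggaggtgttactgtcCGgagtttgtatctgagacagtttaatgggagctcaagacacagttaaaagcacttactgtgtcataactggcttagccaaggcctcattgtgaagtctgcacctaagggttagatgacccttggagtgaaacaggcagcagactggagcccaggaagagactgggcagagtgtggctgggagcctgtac

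NPC peaks were broad and stood little above IgG. Their median width was 16000 bp, with a largest peak of 259000 bp, and their median enrichment over scaled mouse IgG was 1.10 (quartiles 1.01 and 1.23). Of the 11234 peaks, 2446 had fewer reads than scaled IgG, 76 reached 2-fold, and 51.7% had an FDR of at most 0.05. H3K27me3 peaks had a similar median width of 14000 bp and a median fold over rabbit IgG of 2.57 (quartiles 1.84 and 3.52), and 95.5% had an FDR of at most 0.05. Together the listed gene bodies spanned 906 Mb, of which NPC peaks covered 22.3% and H3K27me3 peaks 17.2%.

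About 1 NPC peak in 3 touched H3K27me3, with the count at 3954 of 11234 peaks (35.2%, 95% Wilson interval 34.3 to 36.1). Of the overlapping peaks, 2079 (52.6%) lay wholly inside an H3K27me3 peak, 908 (23.0%) held a whole H3K27me3 peak, and 967 (24.5%) ran across an edge. Seen from the other side, 3500 of 9555 H3K27me3 peaks (36.6%, 35.7 to 37.6) met NPC. By length, 52.5 Mb of gene body lay under both, which was 26.0% of the NPC length and 33.6% of the H3K27me3 length.

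NPC peaks on and off H3K27me3 were alike in strength and background. Their median enrichment was 1.10 in each set, their median width was 16000 bp in each, and mouse IgG gave 35.2 and 34.8 reads per kb. They differed at promoters. An H3K4me3 peak was met by 160 of the NPC peaks on H3K27me3 (4.05%, 3.48 to 4.71) and by 1359 of those off it (18.7%, 17.8 to 19.6). NUP210 was met by 82.8% of NPC peaks, and H3K27me3 by 36.0% of those with NUP210 (35.0 to 37) and 31.3% of those without it (29.2 to 33.4).

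To see how local the overlap is, NPC peaks were clipped to gene bodies and moved by fixed distances along the joined gene bodies of their chromosome, in both directions. In place, 34.8% of the clipped peaks overlapped H3K27me3. Moved by 0.1 Mb they overlapped in 34.1% and 34.4%, and moved by 0.5 Mb in 33.5% and 34.4%. No shift of up to 0.5 Mb gave a share under 33.5%. It was 33.7% and 33.0% at 1 Mb, 31.2% and 32.7% at 2 Mb, 30.1% and 29.9% at 5 Mb, and 29.2% and 28.8% at 20 Mb. The median over the 10 shifts of 1 Mb and more was 30.0% (range 27.9 to 33.7), 4.78 points under the value in place, and none of the 10 reached it. Most of the excess over distant positions was therefore shared by positions up to 0.5 Mb away. Counted in bases, 26.0% of the NPC length lay in H3K27me3 in place, 23.7% and 23.8% after 0.1 Mb, and 18.0% and 18.3% after 20 Mb.

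The excess differed with the fold of the H3K27me3 peaks. H3K27me3 peaks below 1.5-fold met 7.29% of NPC peaks in place (6.82 to 7.79), above all 10 distant shifts, whose median was 4.28%. Peaks of at least 3-fold met 10.7% in place (10.1 to 11.3), below all 16 shifts, near and distant, and the distant median was 12.6%. For peaks of at least 2-fold the value in place was 22.0%, and 9 of the 10 distant shifts and all 6 near ones were at or above it. The rabbit IgG reads in the denominator of this fold moved with NPC overlap. At equal IgG density, but not at equal width, peaks of 3-fold and more met NPC more often than peaks below 2-fold (53.4% against 42.0%).

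**Figure D1:**
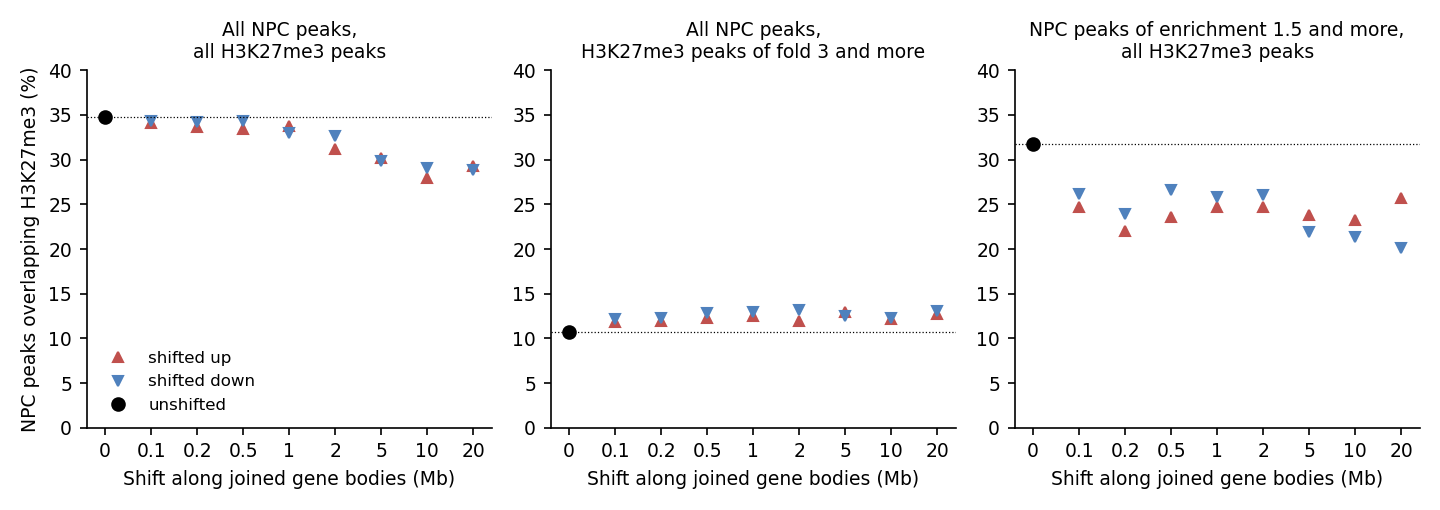
Share of NPC peaks (percent, vertical axis) overlapping H3K27me3 in place (black) and after shifts of 0.1 to 20 Mb along the joined gene bodies (spaced evenly, triangles by direction). All peaks fall from 34.8% towards 29% over megabases, strong H3K27me3 peaks give their lowest value in place (10.7%), and NPC peaks of enrichment 1.5 and more drop from 31.7% within the first 0.1 Mb.

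NPC enrichment, the ratio of ChIP to IgG reads divided by the library ratio of 0.606, did not order the overlap. The share with H3K27me3 was 35.0% (33.2 to 36.9) for the 2446 peaks below 1 and 35.5% (34.5 to 36.5) for the 8157 peaks from 1 to 1.5. It was 32.4% (28.7 to 36.4) for 555 peaks from 1.5 to 2 and 27.6% (18.8 to 38.6) for the 76 peaks of 2 and more. Width moved with these classes. The median width fell from 18000 bp below 1 to 7000 bp from 1.5 to 2 and 3000 bp at 2 and more, so the classes were also compared at equal width. Taken, in the 6 of 10 width classes that held at least 10 peaks of each kind (63.0% of NPC peaks), the share was 35.2% at 1.5 and more and 35.3% below 1. The difference of -0.07 points has a 95% interval from -7.13 to 7, so a difference of up to 7 points either way could not be seen.

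**Figure D2:**
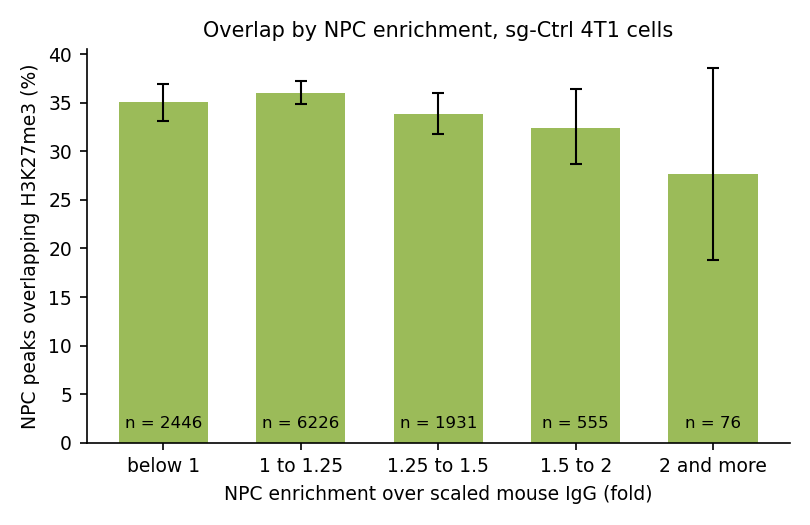
Share of NPC peaks overlapping an H3K27me3 peak (percent, bars from 0) in 5 classes of NPC enrichment over scaled mouse IgG, with 95% Wilson intervals and the number of peaks. The shares lie between 27.6% and 36.0%, and the intervals of neighbouring classes overlap.

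Set against their own shifted positions, the enriched peaks lost overlap at short distance. The 631 NPC peaks of enrichment 1.5 and more overlapped H3K27me3 in 31.7% of cases in place (28.2 to 35.4). After a shift of 0.1 Mb the share was 24.7% and 26.1%, and the median of the distant shifts was 24.2% (range 20.1 to 26.0), with none of the 16 shifts at the value in place. For the 2446 peaks below 1 the value in place was 34.5%, all 6 near shifts were at or above it (35.7% to 37.6%), and so were 3 of the 10 distant ones. With H3K27me3 peaks of at least 2-fold alone, the enriched peaks gave 23.0% in place and a distant median of 18.2%, again with none of the 16 shifts at the value in place. These 631 peaks also differed from the rest in other respects. NUP210 was met by 51.2% of peaks from 1.5 to 2 and 39.5% of those at 2 and more, against 93.4% of those below 1, and H3K4me3 by 5.59%, 2.63% and 16.4%. Mouse IgG gave a median of 27, 25 and 40.3 reads per kb in these classes, and the median length of the longest gene met was 175, 217 and 130 kb. The part of IgG density and gene length in this contrast was not tested.

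H3K27me3 peaks that met NPC were wider and weaker than those that did not. Their median width was 19000 against 12000 bp and their median fold 2.07 (quartiles 1.48 and 2.93) against 2.84 (2.13 and 3.82). The share on NPC was 69.3% (66.7 to 71.8) for 1293 peaks below 1.5-fold, 32.8% (31.2 to 34.5) for 3117 peaks from 2- to 3-fold and 14.1% (11.9 to 16.7) for 779 peaks of 5-fold and more. Rabbit IgG reads, which are the denominator of this fold, moved with the overlap too. They had a median of 17.2 per kb in peaks on NPC and 11.4 per kb in peaks off NPC.

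Sorted by IgG density into 5 equal classes, H3K27me3 peaks met NPC in 5.38% (4.46 to 6.49) of the lowest class, 16.5%, 35.8% and 54.5% of the next classes, and 71.2% (69.1 to 73.1) of the highest. Inside a class the order by H3K27me3 fold was no longer that of the pooled peaks. In the third class NPC was met by 30.5% (26.1 to 35.3) of peaks from 1.5- to 2-fold, 31.8% (28.9 to 34.7) from 2- to 3-fold and 45.2% (40.8 to 49.6) from 3- to 5-fold. In the next class these shares were 47.3%, 54.7% and 67.1%. Peaks below 1.5-fold did not follow this rise. They met NPC in 18 of 36 cases in the third class, 54.5% of 246 in the next and 73.6% (70.8 to 76.2) of 1011 in the highest. Each share was above that from 1.5- to 2-fold, with intervals apart only in the highest class (65.2%, 61.0 to 69.1). The lowest class showed no rise, with 4.55% from 2- to 3-fold, 6.06% from 3- to 5-fold and 4.65% at 5-fold and more. Over the 4 classes that held at least 10 peaks of both kinds, peaks below 2-fold met NPC in 57.1% and peaks of 3-fold and more in 38.6%. With both kinds weighted to the same IgG classes the shares were 42.0% (39.6 to 44.4) and 53.4% (50.8 to 56.1), so the order turned. Peak width was not equalised, and its part in this contrast was not tested. The median width was 11000 bp below 1.5-fold, 12000 bp from 1.5- to 2-fold, 18000 bp from 3- to 5-fold and 9000 bp at 5-fold and more. High IgG density and NPC binding cannot be told apart from these lists, since rabbit IgG density, fold and NPC overlap moved together.

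**Figure D3:**
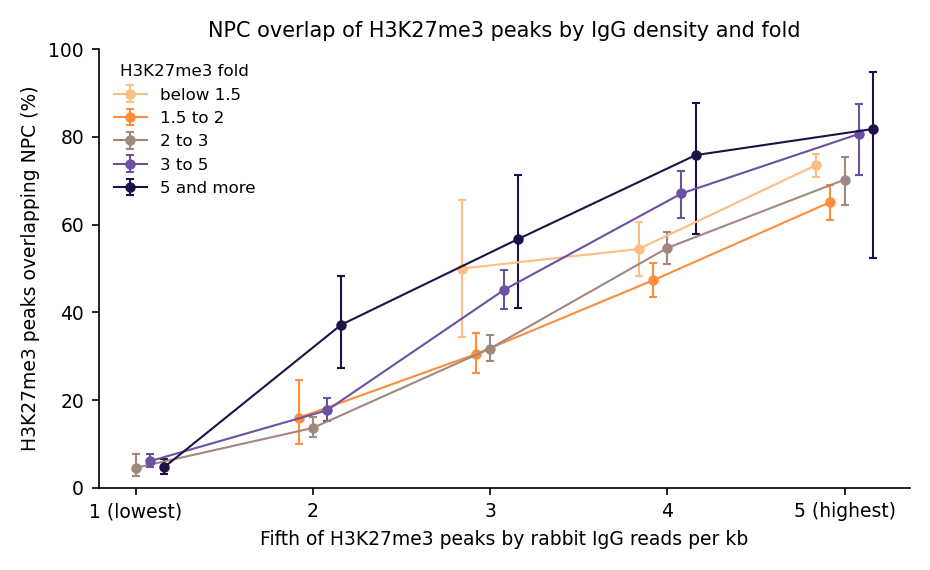
Share of H3K27me3 peaks overlapping NPC (percent) in 5 equal classes of rabbit IgG reads per kb, with 1 line per class of H3K27me3 fold, 95% Wilson intervals, and points of at least 10 peaks. The 3 lines that reach the lowest class start between 4.55% and 6.06%, and all 5 lines end at 65.2% or more in the highest class.

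Chromosomes differed widely in NPC cover. NPC peaks covered 4.10% of gene body length on chromosome X, 5.76% on 7 and 7.93% on 4, and 36.4% on 19, 36.8% on 16 and 40.6% on 15. H3K27me3 covered from 9.47% on chromosome 13 to 30.7% on 19. The share of NPC peaks on H3K27me3 was lowest on chromosome 13 (12.4% of 274 peaks) and highest on 19 (51.7% of 505) and 15 (48.9% of 558). Rabbit IgG reads per kb of H3K4me3 peaks, taken as a measure of background, ranged from 8.77 on X to 16.4 on 9. H3K4me3 peaks are not wholly apart from the peaks compared, since 13.5% of NPC peaks met them. Across the 20 chromosomes these IgG reads moved with NPC cover (Pearson r 0.82, Spearman rho 0.84) and with H3K27me3 cover (0.63 and 0.65). NPC cover moved with H3K27me3 cover (0.79 and 0.84). These are descriptions of single libraries whose chromosomes share depth, and the part of chromosome background in the overlap was not tested.

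**Figure D4:**
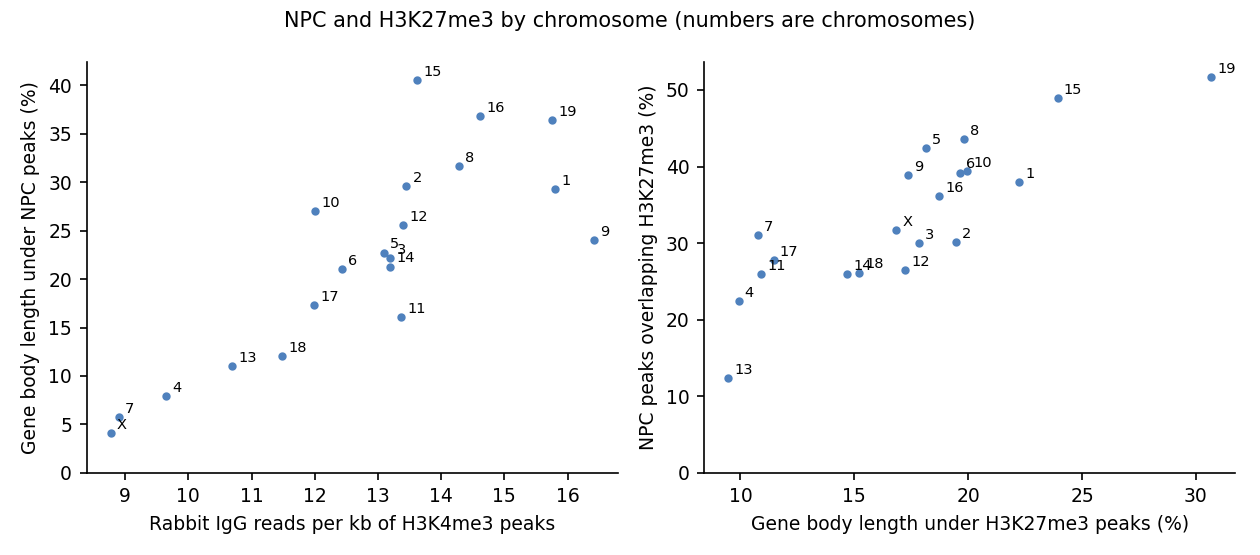
Left, percent of gene body length under NPC peaks against rabbit IgG reads per kb of H3K4me3 peaks, and right, percent of NPC peaks overlapping H3K27me3 against percent of gene body length under H3K27me3, with 1 point per chromosome. X, 7 and 4 have the least NPC cover and IgG, and chromosomes 15 and 19 have the most overlap.

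Genes with an NPC peak made up 30.8% of the listed genes, and genes with an H3K27me3 peak 26.8%. H3K27me3 lay on 2054 of the 5715 NPC-bound genes (35.9%, 34.7 to 37.2) and on 22.7% of the 12847 unbound ones. NPC-bound genes were long. The median length was 43.6 kb for genes with both, 38.6 kb with NPC only, 18.0 kb with H3K27me3 only and 13.4 kb with neither. When unbound genes were weighted to the lengths of bound genes in 20 classes, 31.1% (29.9 to 32.3) had H3K27me3, which narrows the gap to 4.85 points. Unbound genes are listed only when a peak of another list meets them, and H3K27me3 is among those lists. Their share with H3K27me3 is therefore not that of all unbound genes, here and in the length classes below. With H3K27me3 peaks of at least 2-fold alone the order of the 2 values turned, with 26.9% of bound and 28.5% of length-weighted unbound genes. No interval was computed for this pair. The fold limit also takes out many peaks of high rabbit IgG density, and its part was not tested.

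The sign of the gap differed between length classes. NPC-bound genes had H3K27me3 more often in 16 of the 20 length classes and less often in 4. From 10.1 to 12.5 kb, 31.7% (24.3 to 40.3) of bound and 15% (12.7 to 17.6) of unbound genes had the mark. From 81.2 to 114 kb the shares were 29.3% (25.4 to 33.5) and 38.1% (33.7 to 42.7), with the unbound genes higher. Among the longest genes, of at least 197 kb, they were 63.1% (59.4 to 66.6) and 55.7% (49.4 to 61.8). The intervals of bound and unbound genes overlapped in this longest class. They also overlapped in the other classes where unbound genes were higher.

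**Figure D5:**
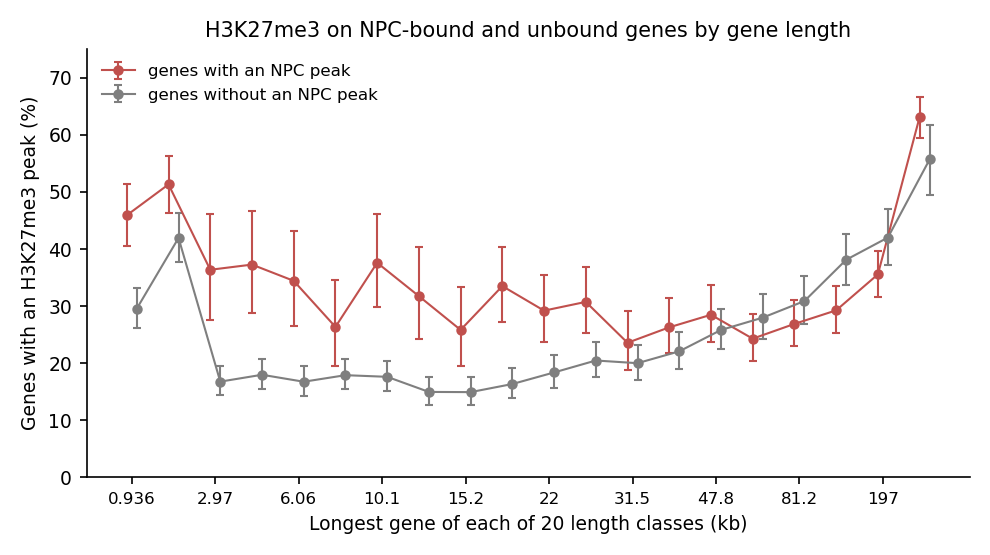
Percent of genes with an H3K27me3 peak in 20 equal classes of gene length (axis labels give the longest gene of every other class), for genes with and without an NPC peak, with 95% Wilson intervals. Bound genes lie above unbound ones up to 47.8 kb, below them from there to 197 kb and above them in the longest class.

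Genes with NPC only and genes with both differed at their promoters. An H3K4me3 peak at the TSS was found for 67.1% of all listed genes, for 2779 of 3661 genes with NPC only (75.9%, 74.5 to 77.3) and for 308 of 2054 with both (15%, 13.5 to 16.6). Genes with H3K27me3 only, at 14.2% (13 to 15.5), were close to genes with both. Genes with neither peak were at 90.1% (83.5% at the lengths of genes with both), but an H3K4me3 peak is itself a reason for their listing. At the lengths of the genes with both, the shares were 68.9% for NPC only and 16.4% for H3K27me3 only, so NPC only exceeded both by 53.9 points (51.8 to 56.0). Among genes with an H3K4me3 peak, 9.98% (8.97 to 11.1) of NPC-bound and 9.27% (8.16 to 10.4, length-weighted) of unbound genes had H3K27me3. Among genes without it the shares were 66.4% (64.6 to 68.2) and 73.1% (71.4 to 74.8), but unbound genes of this kind are listed only when another peak meets them, so they do not stand for all unbound genes.

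NUP210 was on 87.9% of genes with both and 84.4% of genes with NPC only, against 17.6% of genes with H3K27me3 only. At gene starts, NPC covered the start of 45.6% of the NPC-only genes and 47.2% of genes with both, and H3K27me3 covered the start of 59.5% of genes with both and 53.0% of genes with H3K27me3 only. In 800 of the 2054 genes with both (38.9%), the start lay under both. Where NPC lay on the start of an NPC-only gene, 65.9% of 1670 genes had H3K4me3, against 84.3% of the 1991 others.

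Inside genes with both peaks, NPC and H3K27me3 shared bases in 1930 of 2054 genes (94.0%). In the 1353 genes that H3K27me3 did not fill and that NPC met, NPC covered more of the marked than of the unmarked length in 1010 genes and less in 283. The median difference was 20.2 points (95% interval over genes 17.7 to 22.7), and pooled over genes NPC covered 44.4% of marked and 24.4% of unmarked length. For comparison, the NPC cover of each gene was moved along the gene by 50% of its length and wrapped around. The median difference was then -3.66 points, with 496 genes higher inside and 797 lower. Pooled over genes, NPC then covered 36.1% of marked and 29.7% of unmarked length, so a pooled gap of 6.39 points remained after the move. The total cover of each gene is the same in both cases. Only this move was made, and it can place broad NPC cover on the unmarked part of a gene. It is therefore not a neutral baseline. For H3K27me3 of at least 3-fold alone the median difference was 7.08 points (394 genes higher inside, 291 lower) and -3.75 after the move, and for peaks below 2-fold it was 14.2 and -3.54 points. The pooled gap was 10.4 points in place and 4.86 after the move for the first, and 32.0 and 16.9 for the second.

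The genes named for the longest shared stretches were all over 1000 kb long, and of them only Csmd3 had an H3K4me3 peak. Cntn5, a neuronal adhesion gene (chr9:9660891-10904775), shared 1021 kb, with NPC on 97.9% of its marked and 70.6% of its unmarked length. The others were Galntl6 (chr8:57774052-58911627, 672 kb), a glycosyltransferase gene, Prkg1 (chr19:30564487-31765033, 654 kb), a cGMP-dependent kinase gene, Csmd3 (chr15:47580638-48791989, 635 kb) and Sgcz (chr8, 545 kb), a sarcoglycan gene. In each of these 5, NPC covered more of the marked than of the unmarked length. Their strongest peaks were modest on the NPC side, from 1.11 in Cntn5 (1835 ChIP and 2720 IgG reads) to 1.53 in Galntl6 (114 and 123 reads).

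The strongest H3K27me3 peaks that touched NPC met genes known from other tissues, and none of the 5 named here had an H3K4me3 peak. Dock3, a neuronal regulator of Rac (chr9:107093001-107128000), reached 9.55-fold with 2241 and 277 reads, and all 168 kb of its NPC cover lay inside the mark. Smc1b, a cohesin gene of meiosis (chr15:85086001-85136000), reached 8.76-fold with 4837 and 652 reads, and its 31.0 kb of NPC cover also lay inside the mark. Tenm2, a teneurin adhesion gene (chr11:36178001-36193000), reached 8.60-fold with 1041 and 143 reads. Cacna1b, a neuronal calcium channel gene (chr2:24704001-24718000), reached 7.95-fold, and Hrnr, an epidermal gene (chr3:93332001-93360000), 7.83-fold. Most of the Hrnr peak lay beyond the end of the gene (chr3:93319749-93333572), and NPC and H3K27me3 shared 1.57 kb of the gene.

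NPC-only genes with the highest enrichment had small peaks of 3000 to 8000 bp. Stx8, a SNARE gene of endosomes (chr11:67966483-68207148), had a peak at chr11:68140001-68144000 with 130 ChIP and 76 IgG reads, 2.82-fold over scaled IgG (FDR 1.2e-21). Lmbrd1, a lysosomal vitamin B12 exporter gene (chr1:24678544-24766301), had 119 and 72 reads, 2.73-fold. Acbd6, an acyl-CoA binding gene, followed at 2.56-fold, Gm20757 at 2.36-fold and 2310015D24Rik at 2.35-fold. Stx8, Lmbrd1 and Acbd6 had an H3K4me3 peak and the other two did not.

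The highest folds among genes with H3K27me3 only rested on very few IgG reads. Fam221b (chr4:43661001-43665000) had 131 ChIP and 0 IgG reads, 9630028H03Rik 121 and 0, Spon1, an extracellular matrix gene, 117 and 0, and 1700113H08Rik 106 and 0. Counted against the 3 IgG reads that a count of 0 allows per peak, they were at least 51.6-, 47.6-, 46.1- and 41.7-fold over IgG. Gm19990 had 121 and 1 reads, and Emx2, a homeobox gene of brain and kidney development, 157 and 2. Of these 6, only Fam221b carried H3K4me3.

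Gene families were counted against the listed genes as a whole, of which 30.8% had NPC and 26.8% H3K27me3. Of 78 synaptic and neuronal adhesion genes 76 were listed, which are mostly very long (median 728 kb). Of these, 51 had both peaks, 13 NPC only, 9 H3K27me3 only and 3 neither. Ptprd (2271 kb), a receptor phosphatase gene, had its strongest peaks of at least 100 reads at 1.5 for NPC and 4.74-fold for H3K27me3, and Cntnap2 (2241 kb), a contactin-associated adhesion gene, at 1.73 and 6.39-fold. Grid1, a glutamate receptor gene, reached 17.5-fold for H3K27me3 on 148 ChIP and 10 IgG reads. Only 4 of the 76 genes had an H3K4me3 peak, while 84.2% had NPC and 78.9% H3K27me3, shares to be read with their length.

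Hox genes, the regulators of body axis identity, are short, with a median length of 3.29 kb. Of the 27 listed among 39, 12 had H3K27me3 only (44.4%, against 26.8% of all listed genes), 15 had neither, and 0 had NPC. NPC was on 110 of the 928 listed genes from 2.98 to 4.41 kb. Hoxc9 had 180 ChIP and 11 IgG reads for H3K27me3, 19.3-fold. Of 41 developmental transcription factor genes listed among 70, 12 had H3K27me3 only, 4 had both, 5 NPC only and 20 neither, which puts NPC on 22% and H3K27me3 on 39%. Those with NPC were mostly the long ones. Sox6 (567 kb), a regulator of muscle and cartilage, had both, with NPC at 1.69 and H3K27me3 at 15.4-fold, Foxp2 (541 kb), a brain regulator, had both at 1.30 and 2.96-fold, and Sox5 (381 kb) had NPC only at 1.98.

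H3K27me3 was on none of the listed nucleoporin and ribosomal protein genes. Of 30 listed nucleoporin genes, 15 had NPC only (50%, against 30.8% of all listed genes) and 15 neither, and all 30 carried H3K4me3. Their median length was 31.7 kb, and NPC was on 312 of the 928 listed genes from 31.5 to 38.6 kb. Ranbp2, a cytoplasmic filament nucleoporin gene, had 221 ChIP and 269 IgG reads for NPC, 1.36-fold, while Nup93, of the inner ring, was below IgG at 0.97 and Nup98 at 0.96. Of 75 ribosomal protein genes, which are short (median 2.97 kb), 73 had neither and Rpl24 and Rps27a had NPC only. Of 29 Polycomb genes, 9 had NPC only, 1 H3K27me3 only (Phc2, 4.49-fold), 1 both (Bmi1) and 18 neither, so the 34.5% with NPC were near the 30.8% of all listed genes and the 6.9% with H3K27me3 under the 26.8%. Of 19 lamina and LINC genes, which tie the nuclear envelope to chromatin and cytoskeleton, 5 had NPC only, 13 neither, and only Syne1 both, with NPC at 1.71 and H3K27me3 at 4.64-fold. NPC was thus on 31.6% of them, at the share of all listed genes.

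Among 9 genes on migration and adhesion taken from the study, all with H3K4me3, 4 had NPC only, 1 had both and 4 had neither. Cxcl1, a neutrophil chemokine gene, had an NPC peak of 1311 ChIP and 2135 IgG reads, 1.01-fold, and its neighbor Cxcl3 one of 752 and 1436 reads, 0.86-fold. Postn, a matrix protein gene, reached 1.29-fold and Il1a, a cytokine gene, 1.16-fold. Ptk2, the focal adhesion kinase gene (chr15:73205105-73423191), had both, but its strongest NPC peak was at 0.99 and its H3K27me3 peak at 0.79 (546 ChIP and 816 IgG reads), both below IgG. Ccl2, Itga7, Itgb2 and Nup210 had neither peak. The peaks on these genes thus stood at most 1.29-fold over IgG.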

How the data were processed

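ChIP-seq of sg-Ctrl 4T1 cells was analysed from the NPC and H3K27me3 gene body lists, with the NUP210 and H3K4me3 lists beside them (6 lists deposited, 1 library per condition). The H3K27me3 and H3K4me3 lists of Nup210 KO cells helped set the listed genes and gene bodies. The H3K27me3 list of KO cells also served as an alternative. RNA-seq (4 samples) was not used, and IgG samples entered only through the lists. The authors called peaks with SICER, scanning H3K4me3 in 200 bp windows and broad marks in 1000 bp windows (the methods name H3K27me3 and NUP210, and NPC widths are multiples of 1000 bp). The submitters' notes name Trimmomatic, STAR, Picard and Bowtie2, with no role or version. For every peak the authors deposited the ChIP and the IgG read counts, unnormalized, the SICER p-value, its FDR, and the fold, a ratio of ChIP to IgG scaled by library size. Total depth beyond the reads in peaks is unknown.

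Entries that repeat a peak were collapsed, and positions are given counting from 1. For 86.6% of the 5302 NPC-bound genes whose symbol is in the GRCm38.p6 annotation, an end of the gene lay no more than 50 bp from it, so coordinates are given on that build. Overlap required 1 bp. Enrichment is ChIP over IgG reads divided by the library ratio recovered from the folds. Shifts were fixed at 0.1, 0.2, 0.5, 1, 2, 5, 10 and 20 Mb, circular along the joined gene bodies. Gene length is that of the longest listed transcript. Intervals are 95% Wilson intervals for shares, normal intervals for weighted shares and order statistics for medians. Neighbouring peaks and genes are not independent. Copies of genes, overlapping genes and both strands share peaks, since ChIP reads have no strand.

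Named genes needed at least 100 ChIP reads in the naming peak: the 6 NPC-only genes of highest enrichment, the 6 H3K27me3-only genes of highest fold, the 6 genes with the longest shared stretch, the 6 with the strongest H3K27me3 peak on NPC, and from each gene list the 2 longest and those of highest NPC and H3K27me3 fold. Genes behind printed promoters were added. Members and lists were chosen with earlier results of these data known. Some genes that these rules name are not reported here. The steps were checked on simulated data. Software was Python 3.11.15 with numpy 2.4.6 and pandas 2.3.3 for the tables, scipy 1.17.1 for checks of intervals and matplotlib 3.10.9 for plots.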

Additional observations from a re-analysis of the deposited data

How the results depend on the processing

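Of 39 alternatives over 7 results, 19 left the value within its 95% interval, 19 moved it and 1 reversed its sign. The share of NPC peaks on H3K27me3 (35.2%) was 29.1% when 50% of the NPC peak had to be covered, 34.1% and 33.5% at an FDR of at most 0.05 and 0.01 in both lists, 22.4% with H3K27me3 of at least 2-fold, 36.1% with the H3K27me3 list of Nup210 KO cells and 23.9% without the H3K27me3 peaks of highest IgG density (chosen after seeing the data). The distant shifted share (30.0%) was 28.2% at an FDR of at most 0.05, 18.3% with 50% covered, 31.8% along the chromosome, 22.6% with H3K27me3 of at least 2-fold and 24.2% for NPC enrichment of at least 1.5 (chosen after seeing the data). With 50% covered the gap to the shifted share widened, and with H3K27me3 of at least 2-fold the shifted share was the higher one. The share of NPC-bound genes with H3K27me3 (35.9%) was 26.9% with H3K27me3 of at least 2-fold and 9.98% among genes with H3K4me3. The length-weighted share of unbound genes (31.1%) was 32.4% at an FDR of at most 0.05, 28.5% with H3K27me3 of at least 2-fold, above that of bound genes, and 9.27% among genes with H3K4me3. The H3K4me3 difference (53.9 points) was 60.9 without length weights and 56.2 at an FDR of at most 0.05. The difference within genes (20.2 points) was 12.1 at an FDR of at most 0.05, and -3.66 with NPC moved by 50% of the gene, which by construction breaks the pairing. Stricter limits also leave fewer peaks, and the causes of the moved values were not tested. No paired analysis was possible because each target has 1 ChIP-seq library and the RNA-seq groups were not analysed. With 1 library, spread between cultures cannot be estimated. Of the listed NPC peaks, 48.3% had an FDR above 0.05, and the part of depth and background in which peaks are listed was not tested.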
